A study of Mus musculus with 6 samples.

Results

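The TSC complex and the transcription factors TFEB and TFE3 sit on opposite sides of the growth-promoting kinase complex mTORC1 at the lysosome. This section follows 10 genes of that circuit in mouse liver, out of 35082 genes with at least 1 annotated transcript in the data. They were chosen by name: Tsc1, Tsc2 and Tbc1d7, which encode the 3 subunits of the TSC complex; Rheb, the GTPase it acts on; Tfeb, Tfe3 and Mitf, transcription factors of the MiT/TFE family; and Flcn, Fnip1 and Rragd, which control or form the Rag GTPases. All 10 had a matched gene and passed the filter on low counts. Rragd, the least abundant, reached 10 estimated counts in 1 of 3 control and 3 of 3 knockout-labelled libraries, and the other 9 did so in every library.

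Whole liver RNA was sequenced from 6 males, 8 weeks old at the start, after 20 weeks of high-fat feeding. The 3 control mice are called wild-type in the sample titles and have the listed genotype G3BP1f/f. That genotype has floxed alleles of the stress granule protein gene G3bp1, and no Cre is named in the labels. The 3 knockout-labelled mice had the genotype Alb-cre; G3BP1f/f, which adds Cre recombinase driven by the albumin promoter, so that deletion is directed to hepatocytes. Which other liver cells keep the gene was not measured. By the listed genotypes both groups carried the floxed alleles, although the control titles say wild-type. Both groups ate the high-fat diet. Cre itself and the loss of G3bp1 cannot be told apart, and no animal on another diet was analysed here.

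Rheb, when loaded with GTP, switches on mTORC1, and the TSC complex holds this in check because Tsc2 stimulates Rheb to hydrolyse its GTP. The Rag GTPases bring mTORC1 to the lysosomal surface when amino acids are plentiful, and folliculin (Flcn) with its partner Fnip1 acts on the RagC and RagD subunits. Active mTORC1 keeps TFEB and TFE3 in the cytoplasm by phosphorylating them, and when it is off they enter the nucleus and activate genes of lysosomes and autophagy. G3BP1 is known to hold the TSC complex at lysosomes, which links the deleted gene to this circuit. Much of this control acts on proteins, through phosphorylation and location, and RNA levels do not measure it.

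The libraries held 20899135 to 21750007 estimated counts, and transcripts annotated as retaining an intron took 1.33% to 3.23% of them. Knockout-labelled replicates 2 and 3 stood apart, with counts on 36.3% and 37.8% of listed transcripts against 30.2% to 31.2% in the other 4 libraries, and with 9.19% and 10.2% of counts on mitochondrial genes against 7.21% to 7.64%. Knockout-labelled replicate 1 differed in the effective length listed for transcripts of 100 bases, 3.50 there and 100 in every other library. All 8 hepatocyte markers, albumin among them, were detected in every library, with a summed level of 92930 to 119700 CPM (counts scaled to a common depth with TMM factors) in controls and 62290 to 108900 CPM in the knockout-labelled libraries. Markers of other liver cells were also present: those of Kupffer cells and macrophages summed to 283.5 to 922.8 CPM and 290.8 to 410.6 CPM in the 2 groups, and those of endothelial cells to 117.9 to 188.1 CPM and 129.7 to 190.6 CPM. In tissue of mixed cells, fewer cells of a type and less RNA per cell cannot be told apart. G3bp1 itself measured 44.1, 34.8 and 40.5 CPM in the controls and 44.0, 30.0 and 31.5 CPM in the knockout-labelled libraries (in the order of replicates 1 to 3, controls first, as throughout). Its log2 difference, knockout-labelled minus control, was -0.18 (standard error 0.22, edgeR adjusted p = 0.91), so its level did not separate the groups, and they are named by their labels only. No source used here gives the deleted exon, so a sum over all its transcripts is a weak check of the labels. Nothing in the labels says whether the animals shared litters or extraction days, and p-values rest on the spread between these 6 libraries.

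Sequences are shown first, for a Tsc2 transcript used below and for promoter matches. No expression value below rests on the promoter matches. The estimated counts of a short Tsc2 transcript, Tsc2-212, varied widely between libraries. It shares 390 of its 570 bases with Tsc2-201, so that its counts are an estimated division and not reads seen on it alone. Its first 299 bases (chr17:24596760-24597058, minus strand, GRCm38, sequence from GENCODE M21) run through coding exons near the end of the gene, in lower case, and through 2 introns of 92 and 88 bases, in capitals, that the full-length coding transcript Tsc2-201 splices out. A second short transcript, Tsc2-210, keeps the first of these introns and removes the second, and all of its 454 bases lie within Tsc2-212.
Tsc2-212: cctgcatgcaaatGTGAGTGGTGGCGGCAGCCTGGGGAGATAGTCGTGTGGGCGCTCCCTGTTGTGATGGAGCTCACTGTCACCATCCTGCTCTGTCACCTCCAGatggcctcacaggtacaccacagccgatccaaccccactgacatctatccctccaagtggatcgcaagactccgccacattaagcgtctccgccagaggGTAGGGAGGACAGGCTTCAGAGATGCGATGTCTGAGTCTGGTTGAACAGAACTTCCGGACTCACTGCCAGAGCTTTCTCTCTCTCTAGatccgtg

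TFEB, TFE3 and MITF bind the E-box, whose letters CACGTG read the same on both strands. RefSeq promoter windows of GRCm38, from 250 bases before to 50 bases after a start site, were held for all 10 genes (15 windows, since Tfeb, Tfe3 and Mitf have more than 1). The motif occurred in 3 of the 15, those of Rheb, Fnip1 and Tbc1d7, and in 7.15% of 32851 windows of the same length over all genes. The 30 bases around each match are shown with the motif in capitals.
Rheb (chr5:24842440-24842469, minus strand): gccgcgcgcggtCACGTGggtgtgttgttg
Fnip1 (chr11:54438092-54438121, plus strand): tcagtttgctgcCACGTGatacggctcgtc
Tbc1d7 (chr13:43171537-43171566, minus strand): ccggttaacatcCACGTGtgggtgggactc
The matches begin 96, 75 and 53 bases before the RefSeq start of Rheb, Fnip1 and Tbc1d7. The longer form TCACGTGA, which contains the E-box, occurred in none of the 15 windows and in 0.974% of all windows. A match is a stretch of letters and not a measured binding site. Rheb-201, which held nearly all Rheb counts, starts upstream of the Rheb match, at position 24842624, so that this match lies after that start, whereas those of Fnip1 and Tbc1d7 lie before the starts of their leading transcripts Fnip1-201 and Tbc1d7-202.

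None of the 10 genes passed the test between the groups, and none had groups that did not overlap in CPM. Across the 12497 genes tested by edgeR, 0% were called higher and 0% lower, with 568 genes at an unadjusted p under 0.05, while DESeq2 called 0.088%. The groups did not overlap, with the knockout-labelled libraries higher, for 4.79% of tested genes, lower for 4.55%, and in either direction for 9.34%. Of the 10 genes, 6 had a log2 difference above 0 and 4 below, with a median of 0.10 beside 0.01 over all tested genes, of which 51.6% lay above 0. DESeq2 and limma voom called 0 of the 10 as well, and 0 of them had an unadjusted edgeR p under 0.05.

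**Figure D1:**
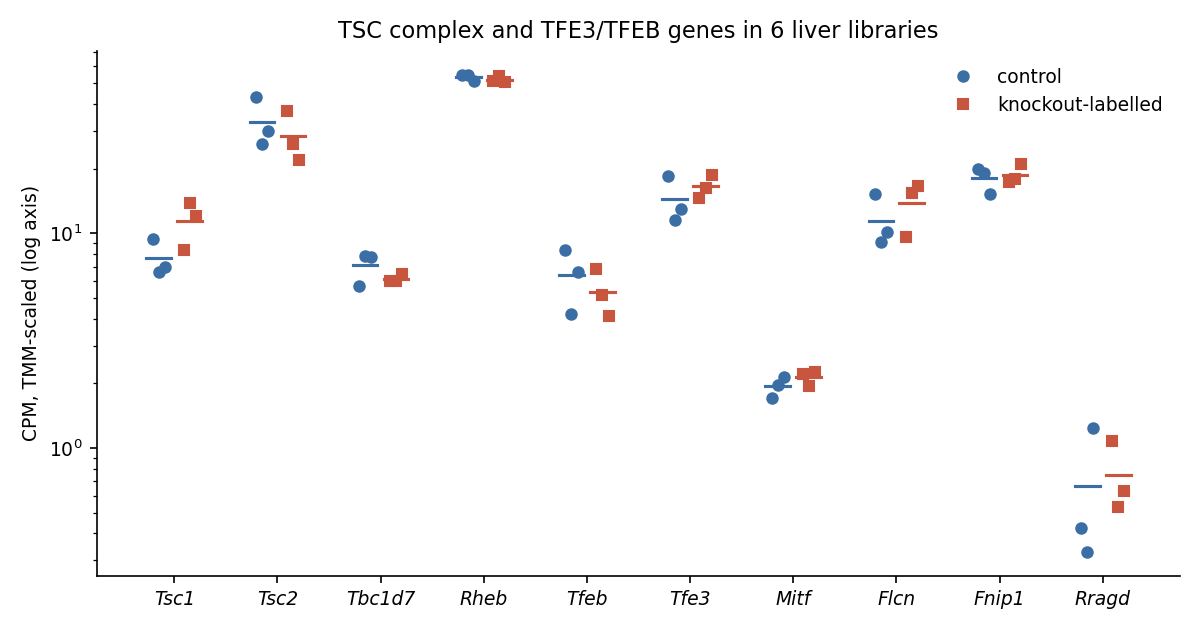
TMM-scaled CPM on a log axis for the 10 genes in the 3 control (circles) and 3 knockout-labelled (squares) libraries, with a bar at each group mean. Levels run from 0.33 CPM for Rragd to 54.9 CPM for Rheb, and the 2 groups overlap for every gene shown.

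Of the TSC complex, Tsc1 had the largest difference of the 10 genes. Tsc1 (chromosome 2, 28641228 to 28691167, plus strand, GRCm38) encodes hamartin, which stabilises Tsc2 (tuberin). It measured 9.37, 6.57 and 7.003 CPM in controls and 8.37, 13.9 and 12.1 CPM in the knockout-labelled libraries. Knockout-labelled replicates 2 and 3 lay above every control, whereas replicate 1 lay inside the range of the controls. Those 2 are the libraries that stood apart in transcripts detected and mitochondrial share, and the part of this in the Tsc1 value was not tested. The group means were 7.65 ± 1.51 and 11.4 ± 2.80 CPM (SD, n = 3 each), a log2 difference of 0.58 with a standard error of 0.26. The 95% interval ran from -0.02 to 1.18, with an unadjusted p of 0.056 and an edgeR adjusted p of 0.845 over all tested genes. Removing the trend with length and GC from each library left a Tsc1 difference of 0.30, while without knockout-labelled replicate 2 or 3 it was 0.42 or 0.54.

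Tsc2, the subunit with the GTPase-activating domain, measured 43.1, 26.2 and 30.0 CPM in controls and 37.2, 26.0 and 22.1 CPM in the knockout-labelled libraries. The highest library of each group was its replicate 1. The means were 33.1 ± 8.90 and 28.4 ± 7.84 CPM (SD, n = 3 each), and the log2 difference was -0.22 (95% interval -0.84 to 0.40, edgeR adjusted p = 0.91). Single libraries moved this value: leaving out control replicate 1 gave 0.02, and leaving out replicate 1 of the knockout-labelled group gave -0.47.

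The 2 short transcripts at the 3' end of Tsc2 varied more between libraries than the rest of the gene. Tsc2-210 and Tsc2-212 took 41.8%, 17.2% and 26.8% of the estimated Tsc2 counts in controls, and 40.6%, 8.70% and 11.7% of them in the other group. Control replicate 1 and knockout-labelled replicate 1 stood highest, and the groups overlapped. Knockout-labelled replicate 1 is the library whose effective length for transcripts of 100 bases differed, whereas control replicate 1 has the value of the rest. Tsc2-210 and Tsc2-212 are longer, at 454 and 570 bases. The part of the difference at 100 bases in the shares was not tested. On the scale of CPM the pair measured 18.03, 4.51 and 8.02 for the controls, then 15.1, 2.26 and 2.58, while all other Tsc2 transcripts together measured 25.1, 21.7 and 21.9 CPM and then 22.1, 23.7 and 19.5 CPM. Without the pair, a sum chosen after seeing the data, the log2 difference of Tsc2 was -0.07. The share of all counts on intron-retaining transcripts of any gene was also highest in the same 2 libraries, at 2.90%, 1.33% and 1.97% in controls, then 3.23%, 1.93% and 1.99%. What part this had in the Tsc2 values was not tested.

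**Figure D2:**
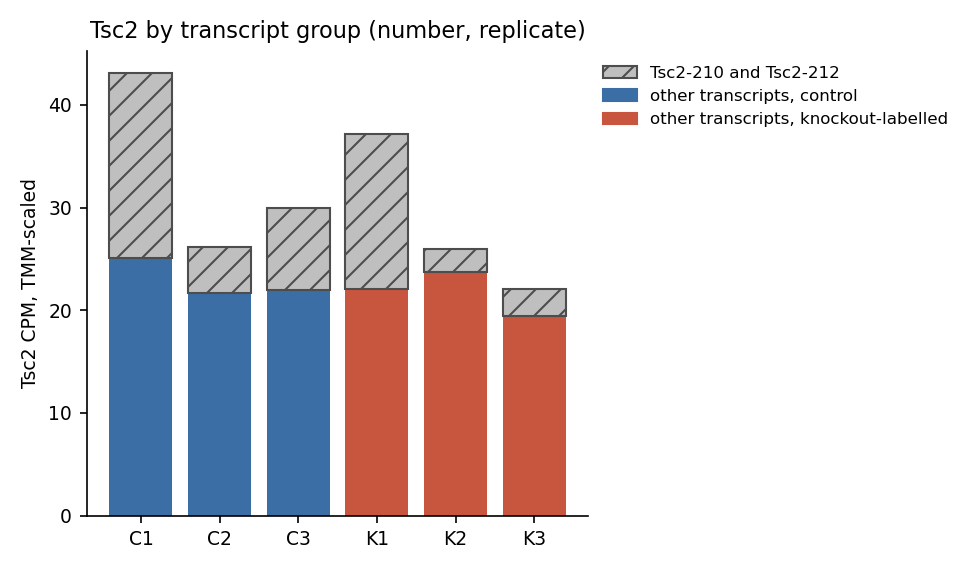
Bars give Tsc2 CPM in each library (C, control; K, knockout-labelled), divided into the 2 short intron-retaining transcripts (hatched) and all other Tsc2 transcripts (solid). The solid parts lie between 19.5 and 25.1 CPM in all 6 libraries, whereas the hatched parts run from 2.26 to 18.03 CPM.

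Because the short transcripts are 454 and 570 bases long against 6018 for Tsc2-201, they weigh far more per length. In the deposited TPM (a transcript abundance that divides by length) they made up 90.5%, 75.6% and 81.1% of Tsc2 in controls and then 87.9%, 49.4% and 59.0%. Tsc2 summed over every transcript was 48.6, 16.8 and 31.2 TPM in controls and 55.7, 18.7 and 18.3 TPM in the knockout-labelled libraries, whereas its protein-coding transcripts alone summed to 2.52, 2.30 and 2.83 TPM and to 3.09, 3.43 and 3.08 TPM. The Tsc2 gene (chromosome 17, 24595816 to 24632630, minus strand) overlaps the end of Pkd1 on the other strand, and no source used here states that counting used strand. Pkd1 measured 3.46, 3.83 and 3.29 CPM in controls and 2.85, 9.29 and 8.38 CPM in the knockout-labelled libraries. The part of Pkd1 reads in the Tsc2 values was not tested.

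Tbc1d7 (chromosome 13, 43151740 to 43171501, minus strand), the smallest subunit of the complex, measured 5.70, 7.83 and 7.77 CPM in controls and 5.998, 5.98 and 6.497 CPM in the knockout-labelled libraries. All 3 knockout-labelled values fell inside the range of the controls. Its log2 difference was -0.21 (95% interval -0.72 to 0.31, edgeR adjusted p = 0.90). The sign turned, to 0.06 once the length and GC trend was taken out and to 0.35 in log2 of TPM plus 0.1. A transcript of 433 bases, Tbc1d7-203, which lies wholly within Tbc1d7-202, took 41.1% of its counts in knockout-labelled replicate 1 and 0% to 14.3% in the other 5 libraries. In that library the effective length listed for transcripts of 100 bases is 3.50, against 100 elsewhere, a length well below the 433 bases of Tbc1d7-203. For long transcripts, length minus effective length was 250 bases there and 241.9 to 262.3 bases in the other libraries. The part of the difference at 100 bases in this share was not tested.

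Rheb (chromosome 5, 24802823 to 24842624, minus strand) varied little between libraries. It measured 54.8, 54.9 and 51.0 CPM in controls and 51.4, 53.8 and 50.9 CPM in the knockout-labelled libraries. The means were 53.6 ± 2.21 and 52.0 ± 1.56 CPM (SD, n = 3 each), and the log2 difference was -0.04 (95% interval -0.43 to 0.35, edgeR adjusted p = 0.97). With 1 library left out it stayed between -0.07 and -0.02, but scaling by library totals alone put it at 0.22. That scaling moved the median of all tested genes from 0.01 to 0.27, so relative to other genes Rheb lay close to 0 under both. Its paralogue Rhebl1 had at most 8 estimated counts in any library and was not tested.

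Among the MiT/TFE factors, Tfe3 (chromosome X, 7762560 to 7775202, plus strand) and Tfeb (chromosome 17, 47737030 to 47792419, plus strand) had log2 differences of opposite sign, neither beyond the spread. Tfe3 measured 18.6, 11.5 and 13.1 CPM in controls and 14.7, 16.3 and 18.7 CPM in the knockout-labelled libraries, with the highest values of the 2 groups nearly equal. Its log2 difference was 0.20 (95% interval -0.33 to 0.74, edgeR adjusted p = 0.90), and it was 0.07 without control replicate 2 and 0.43 without control replicate 1. Tfeb measured 8.36, 4.22 and 6.62 CPM in controls and 6.82, 5.13 and 4.11 CPM in the knockout-labelled libraries. Its log2 difference was -0.26 (95% interval -0.99 to 0.47, edgeR adjusted p = 0.91), and it was -0.02 without control replicate 1 and -0.48 without control replicate 2. Whether the differences of Tfe3 and Tfeb differ from each other was not tested.

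Mitf (chromosome 6, 97807052 to 98021349, plus strand), best known from pigment cells, mast cells and osteoclasts, was low in these livers. It had 32, 36 and 45 estimated counts in controls, then 51, 44 and 54, or 1.70, 1.97 and 2.14 CPM against 2.201, 1.95 and 2.26 CPM. The exact 95% Poisson interval of the lowest count, 32, ran from 21.9 to 45.2 (counting error only) and so covered the lowest knockout-labelled count. The log2 difference was 0.14 (95% interval -0.52 to 0.80, edgeR adjusted p = 0.95), and taking out the length and GC trend brought it to -0.004. Tfec, the remaining gene of the family, measured 1.01, 1.15 and 1.95 CPM in controls and 0.99, 1.15 and 1.01 CPM in the knockout-labelled libraries. The one high Tfec value was in control replicate 3, which also had the highest summed level of Kupffer cell and macrophage markers, 922.8 CPM against 283.5 to 440.1 CPM in the other 5 libraries. All 13 of those markers were detected in every library, and their part in the Tfec value was not tested. Control replicate 3 also had the highest sums for markers of hepatocytes (119700 CPM), stellate cells (276.7 CPM) and neutrophils (13.8 CPM).

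Flcn, Fnip1 and Rragd act through the Rag GTPases, and Flcn and Rragd are also known as target genes of TFEB and TFE3. Flcn (chromosome 11, 59791408 to 59810016, minus strand) measured 15.2, 9.09 and 10.1 CPM in controls and 9.62, 15.5 and 16.6 CPM in the knockout-labelled libraries. One library in each group stood with the other group: control replicate 1 was high and knockout-labelled replicate 1 low. Its log2 difference was 0.28 (95% interval -0.39 to 0.94, edgeR adjusted p = 0.89), and it ran from 0.13 without knockout-labelled replicate 3 to 0.53 without control replicate 1. Fnip1 (chromosome 11, 54438199 to 54518235, plus strand) measured 20.0, 19.1 and 15.2 CPM in controls and 17.4, 17.9 and 21 CPM in the knockout-labelled libraries, with a log2 difference of 0.05 (95% interval -0.39 to 0.49, edgeR adjusted p = 0.97). Its paralogue Fnip2 lay at -0.16 (edgeR adjusted p = 0.92).

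Rragd (chromosome 4, 32983037 to 33022180, plus strand), which encodes the RagD GTPase through which TFEB and TFE3 are held at the lysosome, was close to the limit of detection. It had 8, 6 and 26 estimated counts in controls, then 25, 12 and 15, where 3 counts correspond to 0.13 to 0.16 CPM. Control replicate 3 and knockout-labelled replicate 1 were the 2 high libraries. The exact 95% Poisson interval of the 8 counts in control replicate 1 was 3.45 to 15.8 and that of the 26 counts in control replicate 3 was 17.0 to 38.1, so these 2 controls differed beyond counting error. The log2 difference was 0.15 with a 95% interval from -1.20 to 1.50 (edgeR adjusted p = 0.97). Leaving out control replicate 3 gave 0.98 and leaving out knockout-labelled replicate 1 gave -0.21, and it was also below 0 without either of the other controls, at -0.09 and -0.17, so single libraries set its sign and its size. Control replicate 3, high for Rragd, had the highest sums for markers of several cell types, Kupffer cells and macrophages, hepatocytes and stellate cells among them. Knockout-labelled replicate 1, also high for Rragd, had a Kupffer cell and macrophage sum of 410.6 CPM. Control replicate 2, with the lowest Rragd count, had 440.1 CPM. The part of cell composition in the Rragd value was not tested. Its partner genes Rraga and Rragc lay at 0.03 and 0.09.

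**Figure D3:**
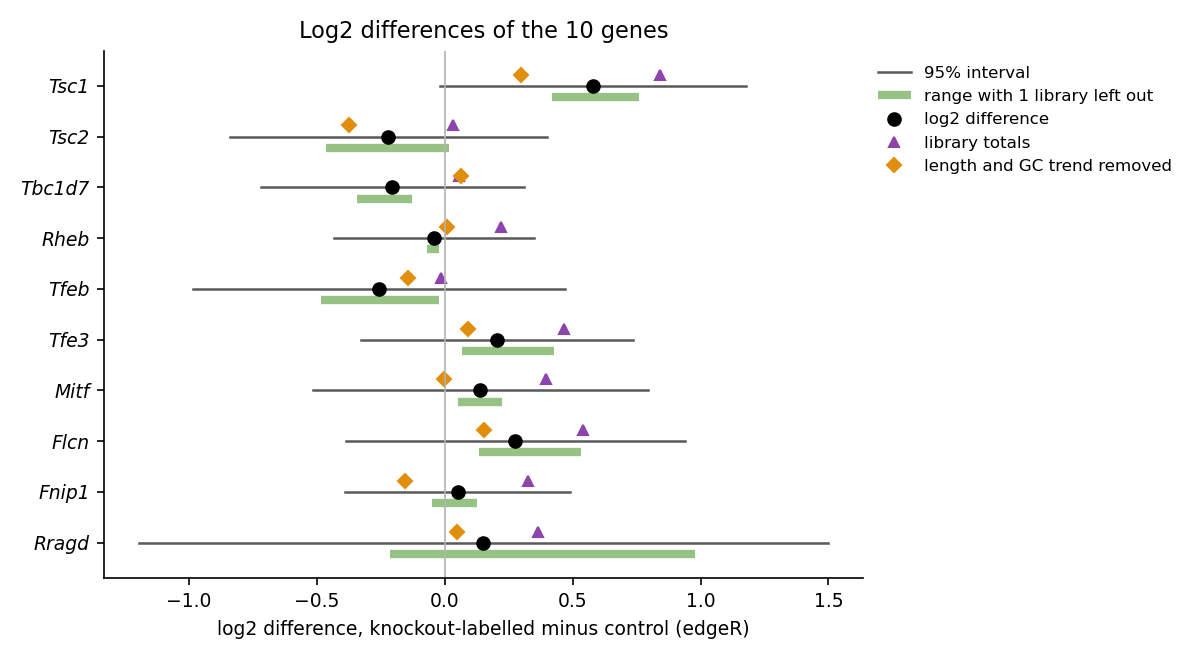
Log2 differences (knockout-labelled minus control) of the 10 genes from edgeR with their 95% intervals, the range when 1 library is left out, and the values under library totals or with each library's length and GC trend removed. Every interval includes 0, that of Tsc1 starts at -0.02, and that of Rragd is the widest, from -1.20 to 1.50.

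The 10 genes were also compared by their pattern over the libraries. For each gene, the most similar other was found as the smallest root mean square difference of mean-centred log2 CPM over the 6 libraries, which share depth and composition effects. Tsc2 and Tfeb were closest to each other, at 0.13, both high in control replicate 1 and knockout-labelled replicate 1 and low in knockout-labelled replicate 3. Tsc2 was summed here over all transcripts, the short intron-retaining pair included. That pair measured 18.03 CPM in control replicate 1, 15.1 CPM in knockout-labelled replicate 1 and 2.26 to 8.02 CPM elsewhere. The rest of Tsc2, at 19.5 to 25.1 CPM, was also highest in control replicate 1 and lowest in knockout-labelled replicate 3. The distance to Tfeb without the pair was not tested. Rheb and Fnip1 were 0.14 apart, and Tfe3 and Flcn 0.17. Tsc1 was closest to Flcn (0.19), Mitf to Rheb (0.17) and Tbc1d7 to Mitf (0.18), while the closest to Rragd was Mitf, at 0.52. A small distance does not mean a shared direction. Rheb deviated from its mean by only -0.051 to 0.056, and Mitf had the opposite sign to Rheb in all 6 libraries.

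Levels can be ranked between genes only per length. The ranking was made on deposited TPM summed over protein-coding transcripts, so that the short Tsc2 transcripts do not enter. The short Tbc1d7-203, of 433 bases, is protein-coding and does enter. It made up 46.2%, 0% and 36.7% of Tbc1d7 TPM in controls, then 79.0%, 0% and 17.5%. The highest Tbc1d7 level, 13.4 TPM, was that of knockout-labelled replicate 1, where Tbc1d7-203 held 10.6 TPM. The rank of Tbc1d7 without this transcript was not tested. Rheb was highest, at 22.4 to 31.2 TPM over the 6 libraries, and its range did not touch that of the next gene. Tbc1d7 (5.06 to 13.4 TPM), Tfe3 (2.99 to 5.91 TPM), Tfeb (1.79 to 3.87 TPM), Tsc2 (2.30 to 3.43 TPM), Flcn (1.81 to 4.00 TPM) and Fnip1 (1.93 to 3.26 TPM) followed by their medians, each with a range that overlapped its neighbour's. Tsc1 was lower, at 0.57 to 1.64 TPM, with no overlap with Fnip1 above it or Mitf below it. Mitf (0.23 to 0.46 TPM) and Rragd (0.04 to 0.23 TPM) came last and just met. The Tsc2 level thus exceeded that of Tsc1 per length in every library.

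In this unit most tested genes were higher in the knockout-labelled libraries, and the median of the 10 lay close to that of all genes. The deposited TPM of 4 genes, Tsc1, Rheb, Mitf and Fnip1, was higher in each knockout-labelled library than in any control, as it was for 19.8% of all tested genes, and 0 of the 10 were lower without overlap (0.328% of all genes). Over protein-coding transcripts alone it was 6 of the 10, adding Tsc2 and Flcn, beside 17.6% of genes, and 0 were lower (0.45% of genes). On log2(TPM + 0.1) the median difference of the 10 genes was 0.36 and that of all tested genes 0.34. Tsc1 had the largest difference there too, 0.93 (limma adjusted p = 0.40). TPM carries no correction for composition, whereas the CPM values above were scaled with TMM factors of 0.90, 0.84 and 1.00 in controls and then 1.08, 1.07 and 1.14.

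The files divide each gene among its transcripts, and several of the 10 genes were divided in all-or-none fashion. Nearly all Tsc1 counts lay on Tsc1-204 in the controls (93.9%, 99.0% and 99.2%), and none lay on it in knockout-labelled replicates 1 and 2, where Tsc1-201 took 93.9% and 87.1%, while replicate 3 had 79.9% on Tsc1-204. The 2 transcripts share 7557 bases, with 38 found only in Tsc1-204 and 117 only in Tsc1-201, so this division of counts is an estimate. Tsc1-201 starts at position 28641237 of chromosome 2 and Tsc1-204 at 28658567. The share of the leading transcript did not overlap between groups for Tsc1 alone among the 10, lower in the knockout-labelled libraries, as for 6.38% of 10201 tested genes with at least 2 transcripts in use (1.44% were higher, and 7.82% did not overlap in either direction). An exact permutation test gave p = 0.1 for Tsc1, two-sided, the smallest that 3 against 3 allows. In shares of TPM, the groups overlapped for all 10.

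For Tfe3 and Tfeb the division followed knockout-labelled replicates 2 and 3. Tfe3-205 took 91.3%, 88.3% and 82.7% of Tfe3 counts in controls, then 92.9%, 48.8% and 36.9%. Tfe3-204, which starts at position 7763959 of chromosome X where Tfe3-205 starts at 7764087 and which has 291 bases of its own, took 29.0% and 27.2% in those 2 libraries and 0% to 15.5% elsewhere. Tfeb-212, which starts inside the gene at position 47786155 of chromosome 17 and is contained in full in Tfeb-202, took 100%, 67.4% and 82.6% of Tfeb counts in controls, then 96.2%, 40.0% and 45.4%. Tfeb-202, with its start at 47737030, took 55.8% and 45.2% in knockout-labelled replicates 2 and 3, 32.6% in control replicate 2 and 0% elsewhere. The 3 libraries with counts on Tfeb-202 had the lowest share of all counts on transcripts of up to 800 bases, 17.0%, 16.6% and 15.0%, against 21.6% to 25.7% in the others. The part of that measure in the transcript shares was not tested.

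Flcn had an intron-retaining transcript whose pattern differed from that of the Tsc2 pair in the knockout-labelled libraries. Flcn-205 took 31.6%, 15.5% and 16.8% of Flcn counts in controls, then 11.2%, 34.9% and 32.4%, low in knockout-labelled replicate 1 where the Tsc2 pair was high. Among the controls, both were highest in replicate 1 and lowest in replicate 2. Summed over protein-coding transcripts alone, a choice made after seeing the data, the Flcn log2 difference was 0.16. Mitf counts lay on Mitf-202 only, the transcript from the most upstream of its 3 RefSeq promoter windows, and no count fell on the transcripts that start in the other 2. Rheb and Fnip1 had 99.7% and 99.96% of counts on 1 transcript each. Rragd counts sat wholly on Rragd-202 in 4 libraries and wholly on Rragd-203 in control replicate 2 and knockout-labelled replicate 3, although the first is contained in the second.

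**Figure D4:**
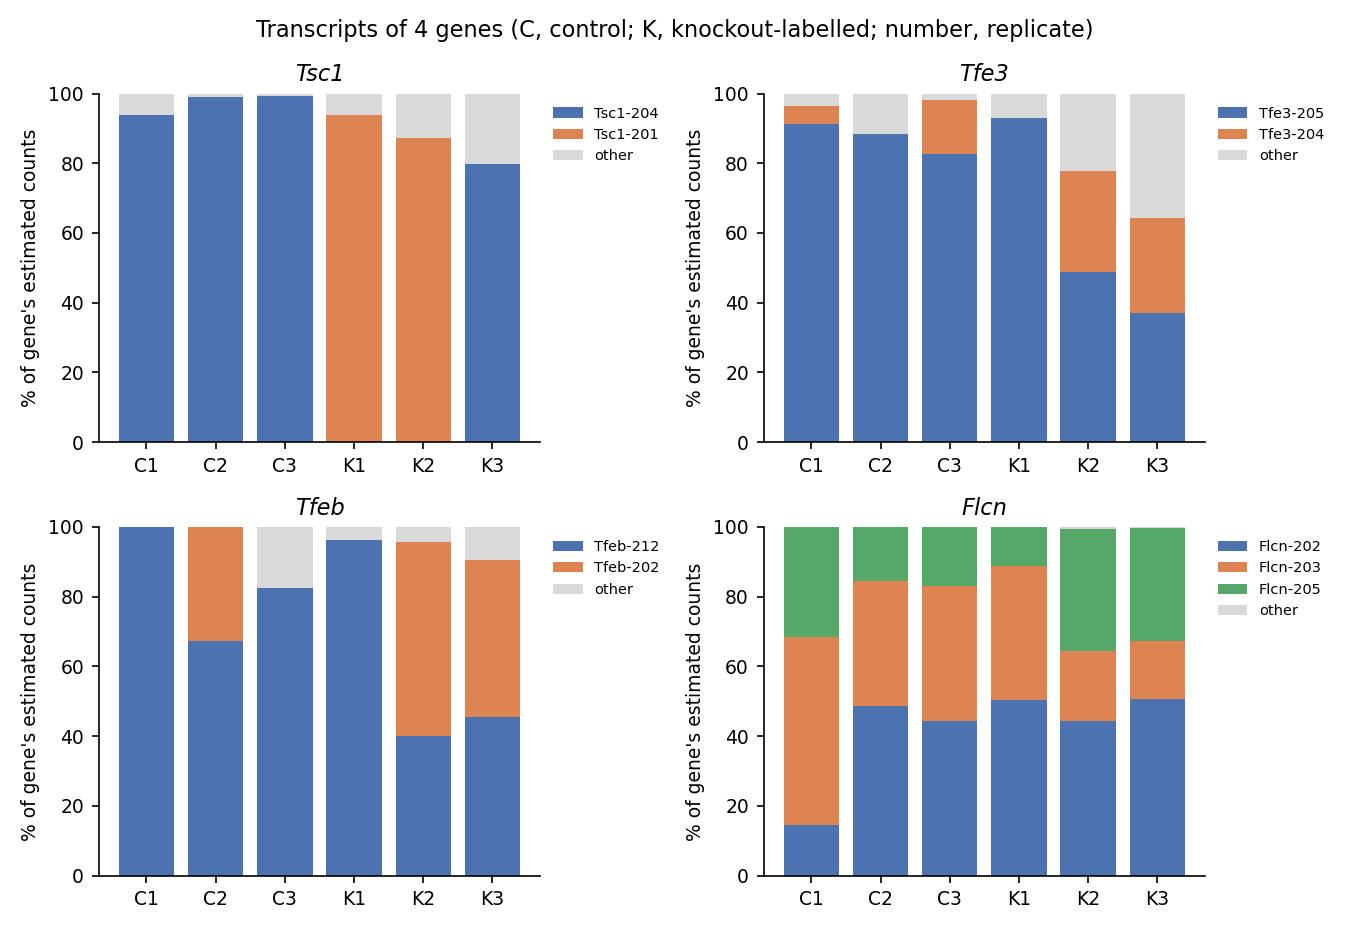
Share (percent) of the estimated counts of Tsc1, Tfe3, Tfeb and Flcn on the transcripts that hold at least 10% of the gene over all libraries, with all others in grey, in controls 1 to 3 (C) and knockout-labelled replicates 1 to 3 (K). Tsc1 changes transcript in K1 and K2, Tfe3 and Tfeb are divided further in K2 and K3, and Flcn-205 is largest in C1, K2 and K3.

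The genes around the circuit were grouped by role, and no gene of any group passed the test over all genes. Of the Rag GTPases, the Ragulator scaffold and the lysosomal arginine sensor, 8 of 9 were tested (Rragb had at most 1 estimated count in a library), with 3 above 0, 5 below and a median of -0.11. Genes of Ragulator subunits had the smallest p. Lamtor4 measured 82.0, 60.4 and 71.5 CPM in controls and 55.8, 37.6 and 30.4 CPM in the knockout-labelled ones, a log2 difference of -0.79 (edgeR unadjusted p = 0.016 and adjusted p = 0.845). Lamtor5 and Lamtor2 had log2 differences of -0.45 and -0.38, while after removal of the length and GC trend Lamtor4 was at -0.43 and Lamtor2 at 0.17. In the group, 2 genes were lower without overlap between the groups of libraries and 1, the arginine sensor gene Slc38a9, was higher, beside 4.55% and 4.79% of all tested genes.

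Among 17 subunits of GATOR and KICSTOR and amino acid sensors, which pass amino acid supply on to the Rag GTPases, 9 lay above 0 and the median was 0.06, and Bmt2 (0.48) and Depdc5 (0.40) were among the genes with the smallest p. Of 9 mTORC1 and mTORC2 subunits 5 lay above 0 with a median of 0.06, and the ones with the smallest p were Deptor (-0.32), an inhibitor of mTOR, Rictor (0.24) and the kinase Mtor (0.17). Of 16 kinases and regulators upstream of the TSC complex, 6 lay above 0 with a median of -0.02. The AMPK subunit gene Prkab1 measured 12.0, 12.2 and 8.81 CPM in controls and 15.4, 19.2 and 14.7 CPM in the knockout-labelled libraries, with no overlap between the groups and a log2 difference of 0.58 (edgeR unadjusted p = 0.028, adjusted p = 0.845). Prkab2 and Ddit4l lay at 0.54 and -0.67. Of 10 mTORC1 substrates and effectors 5 lay above 0 with a median of 0.07, with Ulk1, the kinase that starts autophagy, at 0.43, the translation repressor gene Eif4ebp1 at -0.35 and Larp1 at 0.40. The groups of libraries also did not overlap for Bmt2 and Ulk1, both higher in the knockout-labelled ones, as for 4.79% of all tested genes (9.34% in either direction).

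None of the genes that TFEB and TFE3 are known to activate passed the test. Of 38 such lysosomal and autophagy genes 37 were tested (Gla is listed at 0 in every library), with 15 above 0, 22 below and a median of -0.10, against 0.01 over all tested genes. One gene was higher and 1 lower without overlap between the groups, beside the 4.79% and 4.55% of all genes, and 0 had an unadjusted edgeR p under 0.05. The proton pump subunit genes Atp6v1c1 (-0.43) and Atp6v1h (-0.40) were among those with the smallest p, each with an edgeR adjusted p of 0.845. With library totals the median of the list was 0.16, and relative to all tested genes it was -0.11 under both scalings. Of 12 paralogues and regulators of the MiT/TFE factors 11 were tested, with 4 above 0 and a median of -0.11. Zkscan3, a repressor of autophagy genes, measured 25.2, 16.2 and 16.5 CPM in controls and 17.99, 40.5 and 45.9 CPM in the knockout-labelled ones, high only in replicates 2 and 3, the libraries that stood apart, with a log2 difference of 0.85 (edgeR unadjusted p = 0.042, adjusted p = 0.845). Ywhaz and Gabarap lay at -0.34 and -0.37. Of the proteins that hold the TSC complex at lysosomes, G3bp2 lay at 0.38, Lamp1 at -0.14 and Lamp2 at -0.23 (lower without overlap) beside G3bp1. With library totals, which raise the median of all genes to 0.27, the medians of the Rag and Ragulator genes, the upstream regulators and the MiT/TFE regulators were 0.14, 0.24 and 0.15. Relative to all tested genes they were -0.13, -0.04 and -0.12, against -0.12, -0.03 and -0.12 with TMM factors. The Rag and Ragulator median was also above 0, at 0.08, after removal of the length and GC trend, which put those of the GATOR and sensor genes and of the mTOR complexes below 0, at -0.03 and -0.09.

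**Figure D5:**
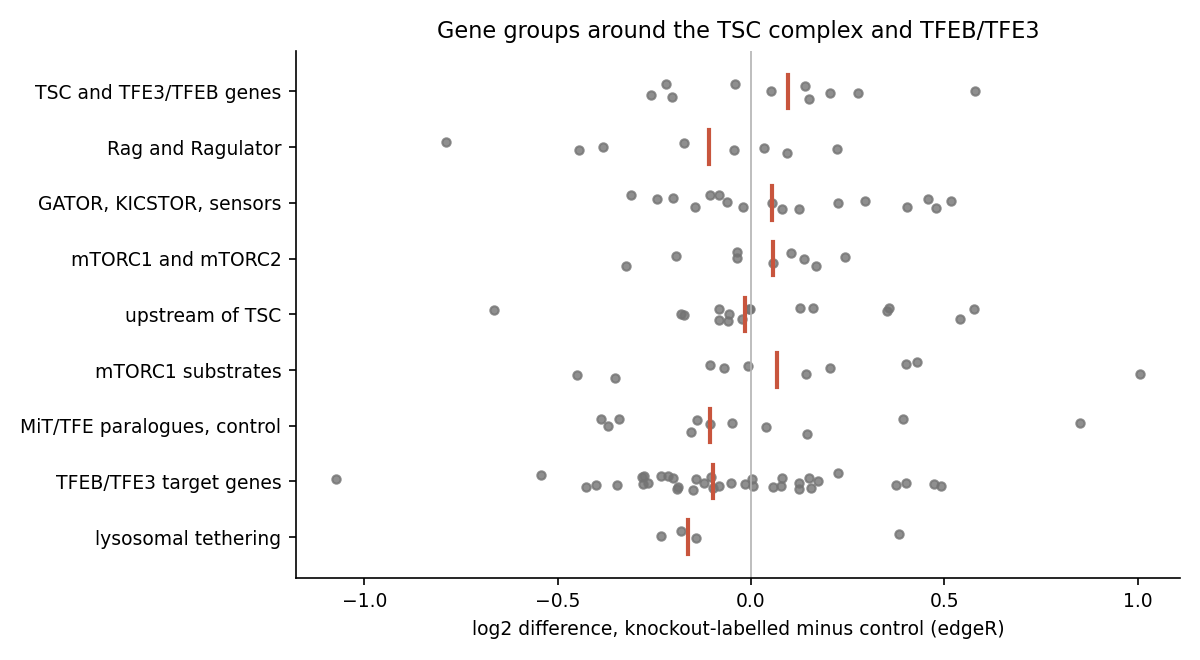
Each point is the edgeR log2 difference (knockout-labelled minus control) of 1 tested gene, in rows by role, and the vertical bar is the median of the row. Medians lie between -0.16 and 0.10, and no gene shown passed the test over all genes.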

How the data were processed

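Per the file headers, each deposited file holds estimated counts, TPM, length and effective length of 115221 transcripts in the column layout of Salmon. Estimated counts were used as deposited, without depth scaling, and the deposited TPM values are scaled to 1 total per library. The submitters' processing notes list GRCm38, RSEM 1.2.8, DESeq and Bowtie2 2.2.5 with no role, and no source used here states the version, options or strand setting. GENCODE M21 gave each transcript its gene, ignoring ID versions (113664 matched), and counts were summed and rounded. Genes passing filterByExpr (12497) were TMM-scaled and compared by edgeR 4.0.16 (R 4.3.3; quasi-likelihood, two-sided), Benjamini-Hochberg threshold 0.05. The test was also run on counts simulated with the dispersions of these data. There edgeR called 0 of 50 genes with a set log2 difference of 0.5, 5 of 50 at 1 and 40 of 50 at 2. It also called 6 of 12132 unchanged genes. Intervals use the test's own degrees of freedom. Alternatives included DESeq2 1.42.0 and limma 3.58.1, and the length and GC trend was a loess fit (span 0.5, degree 2) of log2 CPM with a prior count of 2. The genes and lists were chosen with earlier results of these data known. All 10 genes are described, and of each further list the 3 with the smallest p, although some genes that this rule takes are left out of the text. Promoter sequences are from RefSeq, GRCm38.p6.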

Additional observations from a re-analysis of the deposited data

How the results depend on the processing

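None of the 10 genes passed the edgeR, DESeq2 or limma threshold under any of the 20 alternatives (19 for Rragd), and the log2 differences of Tsc1, Tfe3 and Flcn stayed above 0 in all of them. DESeq2 called 11 genes over all tested (6 higher, 5 lower), and leaving out 1 library gave 0 to 3 calls by edgeR (0 to 2 higher, 0 to 1 lower). The median of the 10 genes was 0.35 with library totals, 0.36 in log2(TPM + 0.1) and 0.30 in log2(TPM + 1), scalings under which the median of all tested genes was 0.27, 0.34 and 0.22. Sums over protein-coding transcripts and without the short Tsc2 transcripts were added after seeing the data. Signs turned for these genes. With library totals: Tsc2 0.034, Tbc1d7 0.056, Rheb 0.22, G3bp1 0.075, Lamp2 0.026 and Lamp1 0.12. In log2(TPM + 0.1): Tbc1d7 0.35, Rheb 0.32, Tfeb 0.094, G3bp1 0.18, Lamtor2 0.012, Deptor 0.025, Eif4ebp1 0.030, Ywhaz 0.021, Lamp2 0.11 and Lamp1 0.26. In log2(TPM + 1): Tbc1d7 0.32, Rheb 0.31, Tfeb 0.064, G3bp1 0.15, Lamtor2 0.012, Deptor 0.022, Eif4ebp1 0.029, Ywhaz 0.019, Lamp2 0.11 and Lamp1 0.26. With an effective length offset, Tbc1d7 was 0.12. After removing the length and GC trend: Tbc1d7 0.063, Rheb 0.009, Mitf -0.004, Fnip1 -0.16, Lamtor2 0.17, Rictor -0.006 and Mtor -0.10. With 1 library left out, Tsc2 ran from -0.47 to 0.015, Rragd from -0.21 to 0.98, Fnip1 from -0.051 to 0.13 and Lamp1 from -0.39 to 0.03. The leading transcript's share was free of overlap between groups for 1 of the 10 genes, for 0 in shares of TPM, and for 1 to 5 with 1 library left out (5 without knockout-labelled replicate 1, where 44.8% of 10201 genes were free of overlap, against 10.8% to 17.9% with any other library left out). Leaving out that library removes the one with another effective length for transcripts of 100 bases and keeps knockout-labelled replicates 2 and 3, which stood apart. The part of either was not tested. With the replicate number as a block, edgeR called 0 genes and the median of the 10 genes was 0.10. Same-numbered libraries correlated at 0.20, 0.28 and -0.15 in their deviations from the group means, not above 0.1 in every pair, so the numbers are not shown to pair animals. With 3 animals a group, intervals as wide as those given above limit what the data can show.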
